A study of Mus musculus with 16 samples.

Results

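Tanycytes are radial glia-like ependymal cells that line the floor and lower walls of the third ventricle. Their long processes reach into the hypothalamic parenchyma and, in the median eminence, onto the portal capillaries. They are known for activating and degrading thyroid hormone signals, for sensing nutrients in cerebrospinal fluid, for forming a barrier at the median eminence and for keeping progenitor properties into adult life. They are commonly divided into alpha tanycytes, along the ventricular wall, and beta tanycytes, in the floor.

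Here 487 tanycytes were selected out of 55675 cells that passed the cell filter (0.875%), in 16 Drop-seq libraries of the hypothalamus and preoptic area. Drop-seq captures single cells in droplets with barcoded beads and counts unique molecular identifiers (UMIs) near the 3′ end of transcripts. The cells were chosen on measured values: at least 1 UMI of *Rax* or *Col23a1*, at least 2 of the 6 genes *Rax*, *Col23a1*, *Dio2*, *Gpr50*, *Lhx2* and *Crym* detected, at most 1 of 5 genes of ciliated ependymal cells, and at most 1 of 11 genes of oligodendrocytes, neurons, endothelium, microglia and mesenchymal cells. Before this selection, barcodes were kept if their gene number lay above 200 and below 4000 and their mitochondrial UMIs stayed under 15%. The levels of the 6 genes, and of any gene in tanycytes against other cells, therefore follow partly from the selection and are given as a description.

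Each library came from 1 mouse labelled female, of a mixed CD-1;129P2 strain, aged 8 to 10 weeks when treatment began. Esr1cKO mice carried floxed *Esr1* alleles. Wild-type mice were littermates without Cre, and Esr1cKO mice carried the Nkx2-1Cre transgene, which removes estrogen receptor alpha from cells with an *Nkx2-1* history and not from every cell of the region. Mice received tamoxifen, a selective estrogen receptor modulator, at 0.1 mg/kg, or oil, in 28 daily subcutaneous injections. The groups were wild-type oil (3 libraries, 106 tanycytes), wild-type tamoxifen (5 libraries, 149 tanycytes), Esr1cKO oil (4 libraries, 123 tanycytes) and Esr1cKO tamoxifen (4 libraries, 109 tanycytes). The tanycytes of a library numbered 10 to 69, with a median of 22, and together gave 13474 to 112107 UMIs per library. A tanycyte held a median of 1284 UMIs and 891 genes, against 1321 UMIs in a ciliated ependymal cell and 520 in an astrocyte.

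Several libraries call for caution. The library labelled Esr1cKO oil replicate 3, which supplied 61 tanycytes, held 3 UMIs of *Xist*, the RNA of the inactive X chromosome, or 0.582 CPM (the UMIs of a gene scaled to a common UMI total) over its kept cells. The other 15 libraries held 228 to 335 CPM. The Y-linked gene *Ddx3y* stood at 17.1 CPM in that library and at 1.06 to 10.1 CPM in the others. Of the other Y-linked genes, *Eif2s3y* stood at 4.65 CPM there and at 0 to 1.10 CPM in the others, *Kdm5d* at 5.82 CPM against 0.184 to 3.98 CPM, and *Uty* at 18.0 CPM, within the 0.264 to 26.2 CPM of the others. On *Xist*, and with 3 of these 4 genes at their highest, this library went against its female label. Wild-type oil replicate 3 and Esr1cKO tamoxifen replicate 3 stood apart from the other 14 on the first principal component of all kept cells, which held 49.5% of the variance. The 4 libraries with the highest library numbers, wild-type tamoxifen replicates 4 and 5 and replicate 4 of both Esr1cKO groups, shared 303 to 359 cell barcodes in each of their 6 pairs, and no other pair shared more than 42. Summed over the 6 pairs, a shared barcode met a cell type rule in either library 430 times, the same rule in both 306 times and different rules 0 times, where a barcode found in all 4 libraries, as 295 were, counts in every pair. Of the 487 tanycytes, 17 carried a barcode kept in another library, and 4 barcodes were tanycytes in 2 or more libraries. Comparisons between groups are therefore given with and without these libraries and cells.

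The genes of the rule are described first, and their levels show only which cells the rule chose. *Rax*, the homeobox gene that marks tanycytes, was detected in 219 of them (44.97%, 95% exact binomial interval 40.5 to 49.5%, which covers counting error only) and *Col23a1*, a transmembrane collagen, in 89.5%. The mean level of *Rax* over the 16 libraries was 424 ± 143 CPM (SD), with a lowest, median and highest library of 175, 402 and 787 CPM. *Col23a1* stood at 1288 ± 242 CPM and in no library under 923 CPM. *Gpr50*, an orphan relative of the melatonin receptors, stood at 518 ± 176 CPM, and *Lhx2*, a homeobox gene that keeps tanycytes from taking an ependymal fate, at 196 ± 93.0 CPM.

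Cells just inside and just outside the selection were compared. Of the tanycytes, 268 had 2 of the 6 genes, 129 had 3, and 90 had more. A further 874 cells met every criterion but had only 1 of the 6 genes. *Scn7a*, a sodium channel gene of tanycytes that the rule did not use, stood at 221 CPM in the cells with 1 gene, 966 CPM in those with 2 and 1642 CPM in those with 3 or more. *6330403K07Rik* stood at 1995, 8709 and 13623 CPM in the same order. *Slc1a2*, the main astrocyte glutamate transporter, ran the other way, at 1479, 1217 and 934 CPM. The limit on ciliary genes alone left out 116 cells with 2 or more of the 6 genes. They held *6330403K07Rik* at 13875 CPM, *Nnat* at 6415 CPM and *Fgf10* at 220.4 CPM, and *Scn7a* at 77.0 CPM. The limit on genes of other cell types alone left out 74 cells, with *6330403K07Rik* at 2762 CPM and *Scn7a* at 445 CPM. These cells also differed in depth. The median was 747 UMIs in cells with 1 gene, 986 with 2 and 1531 with 3 or more. It was 2606.5 in the 116 cells and 2974 in the 74 cells left out. The part of depth in these differences was not tested.

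Of 28 tanycyte markers that the rule did not use, all counted whatever their UMIs, 25 had a higher mean level in the selected cells than in all other kept cells. Their median log2 ratio was 1.47, beside −0.02 over all 27266 genes with a UMI in a kept cell and outside the rule, of which 32.8% (8936) were higher. Of those genes 9338 had no tanycyte UMI and could not be higher, while each of the 28 markers had at least 1. The 32.8% is therefore a low mark for this count and for those of the lists below. Of the 28, 23 were higher than in ciliated ependymal cells and 24 higher than in astrocytes. These counts describe chosen cells and test nothing. The exceptions against all other cells were *Cp*, *Slco1c1*, a thyroid hormone transporter (64.2 ± 61.9 CPM against 261 CPM in other cells), and *Gpr37l1*, a glial receptor (76.0 ± 48.9 against 251 CPM). *Vim*, often used as a tanycyte marker, was higher in tanycytes (500.04 ± 218 CPM) than in astrocytes (44.4 CPM) but stood at 960.3 CPM in ciliated ependymal cells.

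Among these markers, *Six3*, *Six6* and *Nkx2-1*, homeobox genes of the ventral forebrain and hypothalamus, stood at 334 ± 178, 87.1 ± 67.5 and 86.4 ± 70.4 CPM, against 41.4, 13.5 and 15.6 CPM in all other cells. The imprinted genes *Mest* and *Nnat* stood at 213 ± 119 and 4321 ± 1279 CPM against 16.5 and 546 CPM. *Nnat* was above the level of astrocytes in all 16 libraries and above that of ciliated ependymal cells in 14.

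The 20 genes with the largest ratio of tanycytes to all other kept cells, among 1717 genes outside the rule that had a tanycyte UMI in every library, ran from 16.7-fold to 4.81-fold (with 10 CPM added to both levels). *Fzd5*, a receptor for Wnt ligands, led them at 287 ± 112 CPM against 7.80 CPM. *6330403K07Rik*, at 10733 ± 3299.8 CPM against 636 CPM, was detected in 89.9% of tanycytes, 32.9% of ciliated ependymal cells and 4.40% of astrocytes. After each cell was thinned to 500 UMIs, which left out 39 tanycytes, these shares were 83.3%, 14.3% and 3.82%. *Col25a1*, a transmembrane collagen, *Fgf10*, a growth factor made by beta tanycytes, and *S100a6*, a calcium-binding protein, followed at 14.3-fold, 10.4-fold and 9.67-fold. *Thrsp*, a thyroid hormone-responsive gene of lipid synthesis, stood at 329 ± 128 CPM against 32.2 CPM. The Notch target *Hes1* and the glial transcription factor *Sox9* stood at 631 ± 287 and 967 ± 378 CPM, and *Cdh2*, N-cadherin, at 1009 ± 280.3 CPM against 198 CPM. These genes were chosen for this ratio, so their order is a description with no test. Leaving out the 2 libraries that stood apart moved no ratio by more than 1.13 times.

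**Figure D1:**
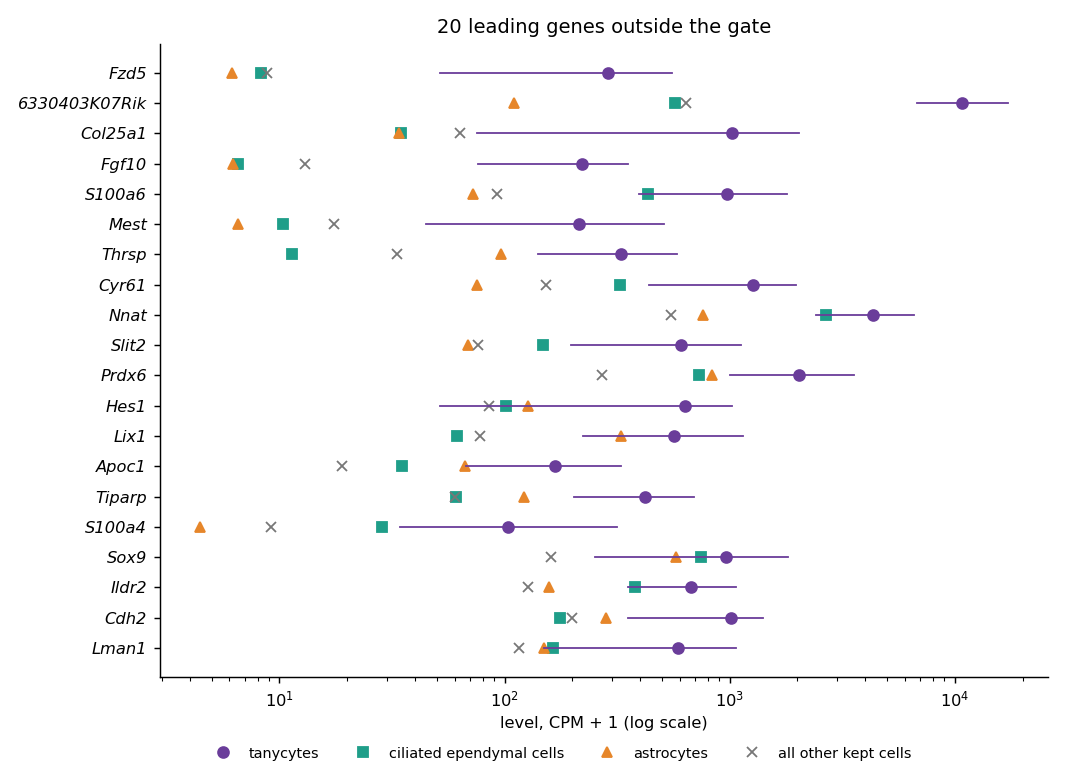
Mean level over 16 libraries (CPM + 1, log axis) of the 20 leading genes outside the selection rule, in tanycytes (circles, with a line from the lowest to the highest library), ciliated ependymal cells (squares), astrocytes (triangles) and all other kept cells (crosses). The genes were chosen for a high ratio of tanycytes to all other kept cells, and *Nnat* and *Sox9* lie closest to ciliated ependymal cells.

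At the other end, the 10 genes with the smallest ratio included the myelin genes *Mbp* and *Cnp*. *Mbp* stood at 504 ± 186 CPM in tanycytes against 1691 CPM in other cells, and *Cnp* at 77.6 ± 36.7 against 527 CPM. *Ptgds*, prostaglandin D synthase of meninges and oligodendrocytes, stood at 157 ± 87.5 against 2252 CPM. *Itih3*, an astrocyte-enriched gene, stood at 140.4 ± 86.3 CPM against 2526 CPM in astrocytes.

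Genes of thyroid hormone handling were uneven. *Dio2*, the deiodinase that turns T4 into active T3, stood at 329 ± 147 CPM against 15.8 CPM in other cells, with a lowest, median and highest library of 136, 320.1 and 726 CPM. *Crym*, which binds T3 in the cytosol, stood at 269.5 ± 132 against 23.9 CPM. *Dio2* and *Crym* belong to the selection rule. Outside the rule, *Tshr*, the receptor through which the pars tuberalis signals to tanycytes, stood at 152 ± 89.8 CPM against 10.2 CPM and was higher than in other cells in 15 of 16 libraries. *Trhde*, the ectoenzyme that degrades TRH, stood at 101 ± 82.9 against 47.7 CPM. The receptors *Thra* (250.3 ± 104 CPM) and *Thrb* (111 ± 54.0 CPM) differed less from other cells (203 and 58.1 CPM). Of the 21 list members outside the rule, 12 had a higher mean in tanycytes than in other cells, with a median log2 ratio of 0.23. *Slco1c1* and *Slc3a2*, both parts of thyroid hormone transport in barrier cells, were lower.

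Of 22 genes of retinoid handling and chemerin, 11 had a higher mean in tanycytes than in other cells, with a median log2 ratio of −0.03. Their summed level was 659.9 ± 288 CPM against 835 ± 1629 CPM in other cells, whose libraries ran from 322 to 6936 CPM. It lay above other cells in 14 of 16 libraries, so these means do not give the direction found in most libraries. The sum lay above astrocytes in 12 libraries and below ciliated ependymal cells in all 16. Gene by gene, 14 of the 22 had a higher mean in tanycytes than in ciliated ependymal cells. *Aldh1a1*, an enzyme of retinoic acid synthesis, stood at 149 ± 182 CPM against 31.1 CPM, and ranged from 0 to 693 CPM between libraries. *Rbp4*, a retinol carrier, stood at 82.4 ± 61.1 CPM against 14.3 CPM. *Rarres2*, which encodes chemerin, stood at 50.2 ± 34.6 CPM, below the 686 CPM of ciliated ependymal cells in all 16 libraries.

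Of 34 members of the neural stem and radial glia list outside the rule, 18 had a higher mean in tanycytes than in all other cells, with a median log2 ratio of 0.26, and 2 had no tanycyte UMI. *Slc1a3*, the glial glutamate transporter, stood at 1473 ± 326 CPM, between ciliated ependymal cells (465.8 CPM) and astrocytes (3919 CPM) on the means. *Msi2*, an RNA-binding protein of progenitors, stood at 821 ± 165 against 306 CPM, and *Id4* at 234 ± 76.7 against 46.6 CPM. *Fabp7*, *Id2* and *Id3*, which astrocytes expressed at 338, 712 and 358 CPM, stood at 40.1 ± 41.7, 99.5 ± 93.0 and 115 ± 75.6 CPM in tanycytes.

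Of 36 genes of growth factor signalling, 19 had a higher mean in tanycytes than in all other cells, with a median log2 ratio of 0.09, and 1 had no tanycyte UMI. *Ptn* (pleiotrophin) stood at 2652 ± 853 CPM against 752 CPM in other cells, and *Mdk* (midkine) at 242 ± 99.98 against 54.4 CPM. *Igfbp5*, an IGF-binding protein, stood at 648 ± 305 against 185 CPM. *Tgfb2*, one of the tanycyte signals to GnRH terminals, stood at 195 ± 132 against 73.7 CPM. *Vegfa* stood at 197 ± 103 CPM, above the 19.6 CPM of ciliated ependymal cells and below the 451 CPM of astrocytes. *Fgfr3* stood at 53.9 ± 41.8 CPM, against 741 CPM in astrocytes.

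The nutrient list summed to 2048 ± 260.3 CPM in tanycytes and 5078 CPM in astrocytes, and the lipid uptake and oxidation list to 13859 ± 2561 and 21733 CPM. Single genes went both ways, and of all members 10 of 32 and 9 of 24 had a higher mean in tanycytes than in astrocytes. The glucose transporter *Slc2a1* stood at 88.2 ± 47.5 CPM, below ciliated ependymal cells (396 CPM) in all 16 libraries. The lactate dehydrogenase subunit *Ldha* stood at 226 ± 72.8 CPM, above astrocytes (92.3 CPM) in all 16, while *Ldhb* stood at 485 ± 106 against 986 CPM in astrocytes, below them in all 16. Of 25 cholesterol synthesis genes, 0 had a higher mean in tanycytes than in astrocytes. Their summed level was 2002 ± 510.2 CPM in tanycytes and 5077 CPM in astrocytes. *Apoe* was abundant in both, at 9714 ± 2001 CPM in tanycytes and 12959 CPM in astrocytes.

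Of 24 barrier and junction genes, 9 had a higher mean in tanycytes than in all other cells and 10 than in astrocytes, 4 had no tanycyte UMI, and the median log2 ratio to other cells was −0.11. Their summed level was 2605 ± 556 CPM, led by *Cdh2*, against 2145 CPM in other cells and 5376 CPM in astrocytes. *Cldn10*, a claudin, stood at 392 ± 196 CPM, far above the 7.97 CPM of ciliated ependymal cells in all 16 libraries and below the 740.4 CPM of astrocytes. *Gja1*, connexin 43, stood at 512 ± 144 CPM, and *Aqp4*, the water channel of astrocyte endfeet, at 112 ± 86.0 CPM against 819 CPM in astrocytes, which were chosen partly by it.

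Cilium genes were partly fixed by the selection of all 3 classes, since ciliated ependymal cells were chosen for at least 2 of 5 ciliary genes and tanycytes and astrocytes were allowed at most 1. The summed level of 23 motile cilium genes was 1994 ± 333 CPM in tanycytes, 12639.8 CPM in ciliated ependymal cells and 280.2 CPM in astrocytes, and tanycytes lay between the others in all 16 libraries. *Enkur*, a sperm and cilium protein, stood at 272 ± 95.7 CPM in tanycytes and was detected in 30.2% of them. Of the 5 genes of the rule, *Foxj1* stood at 43.3 CPM and *Tmem212* at 6.58 CPM in tanycytes.

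Immediate early genes stood above both neighbouring classes on their summed mean. Of 25 such genes, 24 had a higher mean in tanycytes than in astrocytes, 20 a higher mean than in ciliated ependymal cells and 17 a higher mean than in all other cells, and 1 had no tanycyte UMI. Their summed level lay above astrocytes in all 16 libraries and above ciliated ependymal cells in 13. *Fos* stood at 4021 ± 1436 CPM against 391 CPM in astrocytes and 1475 CPM in ciliated ependymal cells, above both in all 16 libraries. *Jun* stood at 3031 ± 1234 CPM against 282 CPM in astrocytes. The cells had been dissociated with papain, and dissociation is known to induce these genes. Its part in these levels was not tested.

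**Figure D2:**
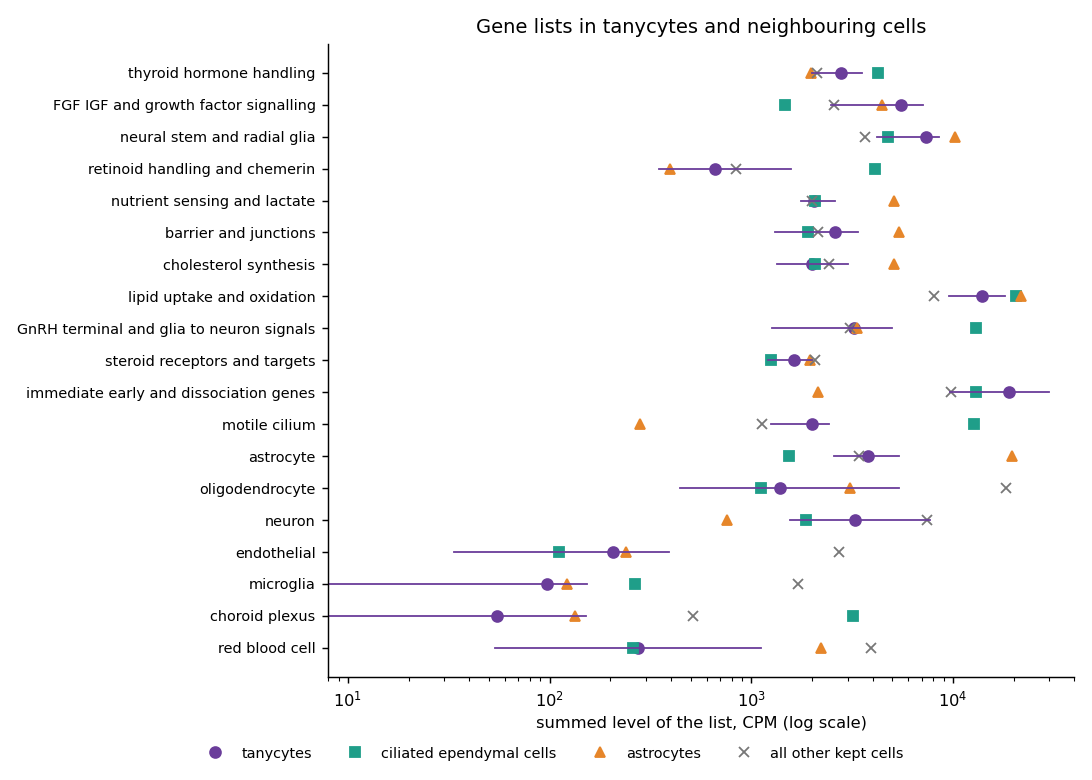
Summed level of each gene list (CPM, log axis) in tanycytes (circles, with a line from the lowest to the highest library, cut at the left edge where a library is under the axis), ciliated ependymal cells (squares), astrocytes (triangles) and all other kept cells (crosses), as means over 16 libraries. Tanycytes lie between ciliated ependymal cells and astrocytes for motile cilium genes and above both for immediate early genes. In ciliated ependymal cells the thyroid hormone, retinoid and choroid plexus sums include *Ttr* at a mean of 2912 CPM, which comes from wild-type tamoxifen replicate 2 (46425 CPM). Without that library the mean is 11.19 CPM. In all other kept cells the same sums have means of 2112, 835 and 512 CPM and highest libraries of 8324, 6936 and 6706 CPM.

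RNA that marks other cell types was also measured. The 12 astrocyte genes summed to 3801 ± 827 CPM, led by *Aldoc*, against 3416 CPM in all other cells and 19502 CPM in astrocytes. The summed level of 10 oligodendrocyte genes was 1395 ± 1279 CPM, led by *Mbp*, against 18289.9 CPM in all other cells. The 10 neuronal genes, led by *Meg3*, summed to 3249 ± 1783 CPM against 7457 CPM in all other cells, and lay above ciliated ependymal cells (1871 CPM) in 15 libraries and above astrocytes (758 CPM) in 16. The sums were 206 ± 107 against 2725 CPM for 10 endothelial genes, led by *Flt1*, and 97.6 ± 42.0 against 1702 CPM for 10 microglial genes, led by *Cx3cr1*. The part of this RNA in the levels above was not tested. *Cldn5*, *C1qa* and *Mog* had 1, 1 and 2 UMIs over all tanycytes, and the rule limits all 3. The choroid plexus marker *Ttr* had 1 UMI. A doublet caller marked 1 of the 487 tanycytes and 0.855% of all kept cells, none of which were removed.

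Estrogen and progesterone receptors were sparsely detected. *Esr1*, the gene deleted in Esr1cKO mice and a known target of tamoxifen, had 37 UMIs in 35 tanycytes, or 7.19% of them (95% exact binomial interval 5.06 to 9.85%). It was detected in 4.34% of ciliated ependymal cells and 2.49% of astrocytes. After thinning to 500 UMIs these shares were 2.90%, 1.45% and 2.28%, and the difference between cell types was not tested. The mean level was 46.0 ± 34.5 CPM in tanycytes and 45.3 CPM in all other cells. The libraries held 105, 19.8 and 34.1 CPM of *Esr1* in wild-type oil, 87.4, 0, 93.6, 47.5 and 77.0 CPM in wild-type tamoxifen, 32.9, 50.9, 8.92 and 58.2 CPM in Esr1cKO oil, and 66.8, 0, 0 and 54.2 CPM in Esr1cKO tamoxifen. All 4 groups overlapped, and none of these values rests on more than 7 UMIs. Counting near the 3′ end can still register transcripts of a deleted allele, so these values do not check the knockout. *Nkx2-1*, whose regulatory sequence drives the Cre transgene, was detected in 11.9% of tanycytes (9.17 to 15.1%), 3.42% of ciliated ependymal cells and 0.643% of astrocytes. *Esr2* had 19 UMIs, *Gper1* 9, *Greb1*, an estrogen-responsive gene, 8, and *Pgr* 5. The glucocorticoid receptor *Nr3c1* stood at 202 ± 79.6 CPM, close to all other cells (204 CPM).

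Tanycytes differed among themselves in the markers of their subtypes. At least 1 of *Frzb*, *Scn7a*, *Col25a1*, *Penk*, *Adm*, *Fgf10* and *Fgf18* was detected in 291 tanycytes (59.8%), and at least 1 of the alpha markers *Cd59a*, *Slc17a8*, *Vcan* and *Nr2e1* in 155 (31.8%). Only beta markers were found in 198 cells, only alpha markers in 62, both in 93 and neither in the remaining 27.5%. The cells with neither were shallower, with a median of 797.5 UMIs against 1420.5 in beta-only cells and 1832 in cells with both. *Scn7a* was detected in 141 tanycytes (29.0%), with 1054 UMIs. *Col25a1* was detected in 80.9% of cells with *Scn7a* and 21.7% of those without, and in 61.9% and 14.6% after thinning. *Vcan* was detected in 4.26% of cells with *Scn7a* and 19.4% of those without. *Fgf10* was detected in 40.4% of cells with *Scn7a* and 17.9% of those without, and in 21 of 105 and 26 of 343 cells after thinning. Other markers differed less or changed order. The alpha marker *Cd59a* was detected in 19.1% of cells with *Scn7a* and 15.03% of those without, and in 2.86% and 7.87% after thinning. The beta markers *Frzb* (8.57% and 6.41%) and *Penk* (6.67% and 6.41%) differed little by *Scn7a* after thinning. *Frzb* was detected in 27.8% of cells with *Cd59a* and 17.6% of those without, and in 16.7% and 6.22% after thinning.

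Outside the alpha and beta marker lists, 1323 genes were ranked by the ratio of beta-only to alpha-only cells. Genes from the ends of that ranking, and *Dio2* and *Crym* of the selection rule, are given as a description with no test. *Rgs7bp*, a regulator of G protein signalling, stood at 488 CPM over beta-only cells and 12.05 CPM over alpha-only cells. *Six3* stood at 497 and 60.2 CPM, *Aldh1a1* at 226 and 0 CPM, and *Lrat*, which stores retinol as ester, at 197 and 0 CPM. *Dio2* stood at 447 and 157 CPM, while *Crym* stood at 182 and 397 CPM. On the alpha side, *Slc1a2* stood at 2084 against 491 CPM and *Sparcl1* at 1662 against 362 CPM. Cells with neither marker had *Slc1a2* at 2166 CPM and *Sparcl1* at 2762 CPM. These are genes that astrocytes also express, and the part of astrocyte RNA in this difference was not tested. *Npy* stood at 867 CPM in alpha-only cells, but 98.6% of all its 208 tanycyte UMIs came from 2 cells.

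**Figure D3:**
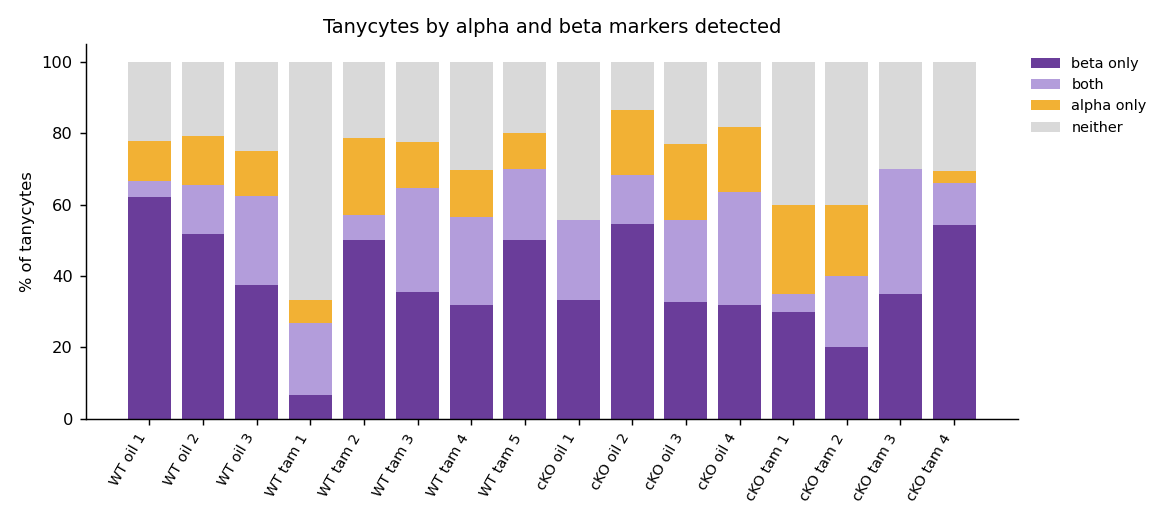
Percent of the tanycytes of each library with only beta markers (purple), both kinds (light purple), only alpha markers (yellow) and neither (grey), by group (WT, wild-type; cKO, Esr1cKO; tam, tamoxifen; replicate number). Beta-only cells range from 6.67% in wild-type tamoxifen replicate 1 to 62.2% in wild-type oil replicate 1.

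The first comparison between groups asked whether tanycytes were recovered in different numbers. They made up 2.58%, 0.890% and 0.995% of the kept cells in the wild-type oil libraries and 0.417%, 0.449%, 0.557%, 1.25% and 0.526% in wild-type tamoxifen. In the Esr1cKO oil libraries they made up 0.587%, 0.806%, 1.45% and 0.676%, and in Esr1cKO tamoxifen 0.726%, 0.530%, 0.486% and 1.53%. Wild-type oil replicate 1 stood highest, and every pair of groups overlapped. The study handled 4 mice a day over 4 days, and the library numbers run in fours with 1 library of each group in the first 3, though the labels do not name the fours as days. Within each of these 3 fours wild-type tamoxifen was lower than wild-type oil (0.417% against 2.58%, 0.449% against 0.890% and 0.557% against 0.995%). The fourth holds wild-type tamoxifen replicates 4 and 5 and no wild-type oil library. The mean difference within fours was −1.01 percentage points (exact permutation within fours, p = 0.25, the smallest that 3 fours allow). In Esr1cKO mice tamoxifen was lower in 2 fours and higher in 2. The means were 1.49 ± 0.945% (SD, n = 3) and 0.641 ± 0.348% (n = 5) in wild-type oil and tamoxifen, a difference of −0.847 percentage points (two-sided exact permutation p = 0.107, adjusted p = 0.571). Without wild-type oil replicate 1 this difference was −0.302 percentage points, and that of Esr1cKO against wild-type under oil went from −0.608 to −0.0631. They were 0.879 ± 0.390% and 0.819 ± 0.487% in Esr1cKO oil and tamoxifen (n = 4 each, exact permutation p = 0.714, adjusted p = 0.857). P-values were adjusted over the 12 tests of 3 measures in 4 comparisons. The smallest p these tests allow is 0.0357 for the wild-type comparison, 0.0286 for the Esr1cKO comparison, 0.0571 for the genotypes under oil and 0.0159 for the genotypes under tamoxifen, all before adjustment. After adjustment over the 12 tests, a difference in 1 comparison alone could not have passed 0.05, so the absence of a call says little of whether the groups differ. A dissected share of cells depends on how much median eminence and ventricular wall each piece held, and smaller numbers of cells cannot be told apart from weaker recovery.

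Measured against ciliated ependymal cells of the same ventricle, the numbers varied more widely, from 9.57 to 264.7 tanycytes per 100 ciliated cells. Wild-type oil replicate 1 held 45 tanycytes and 17 ciliated cells, while the libraries that stood apart, wild-type oil replicate 3 and Esr1cKO tamoxifen replicate 3, held 32 and 20 tanycytes beside 239 and 209 ciliated cells. The means were 111 ± 135 in wild-type oil, 29.5 ± 11.5 in wild-type tamoxifen, 63.0 ± 18.6 in Esr1cKO oil and 41.2 ± 24.6 in Esr1cKO tamoxifen. Without wild-type oil replicate 1 the wild-type oil mean was 33.5, the wild-type tamoxifen difference went from −81.1 to −4.00, and the genotype difference under oil turned from −47.6 to 29.4. None of the 4 comparisons passed the threshold (exact permutation, lowest p = 0.257, lowest adjusted p = 0.571). The share of tanycytes with a beta marker was 64.9 ± 2.15% and 54.97 ± 16.8% in wild-type oil and tamoxifen and 60.8 ± 6.21% and 52.8 ± 17.8% in Esr1cKO oil and tamoxifen. Neither these nor the genotype comparisons passed the threshold (exact permutation, lowest p = 0.286, lowest adjusted p = 0.571). The sign of the beta marker difference in wild-type mice was not stable: from −9.93 percentage points it turned to 16.1 after thinning to 500 UMIs, 8.05 with mitochondrial UMIs under 5% and 3.603 with no ciliary or exclusion gene allowed. Only libraries with at least 10 tanycytes entered, so the set of libraries changed too. In the same order, 3, 2 and 3 wild-type oil libraries and 2, 3 and 3 wild-type tamoxifen libraries were left. In Esr1cKO mice it turned from −8.00 to 12.4 after thinning, with 2 oil and 3 tamoxifen libraries left. Whether the processing or the change of libraries turned the sign was not tested. With the cells of shared barcodes left out none of the 12 tests passed the threshold. After adjustment a difference in 1 comparison alone could not have passed there either. With the 2 libraries that stood apart and the library without *Xist* left out as well, the smallest p allowed was 0.0952, 0.1 and 0.2 in the tamoxifen comparisons of wild-type and Esr1cKO mice and the genotypes under oil, so those tests could not pass and say nothing of stability.

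**Figure D4:**
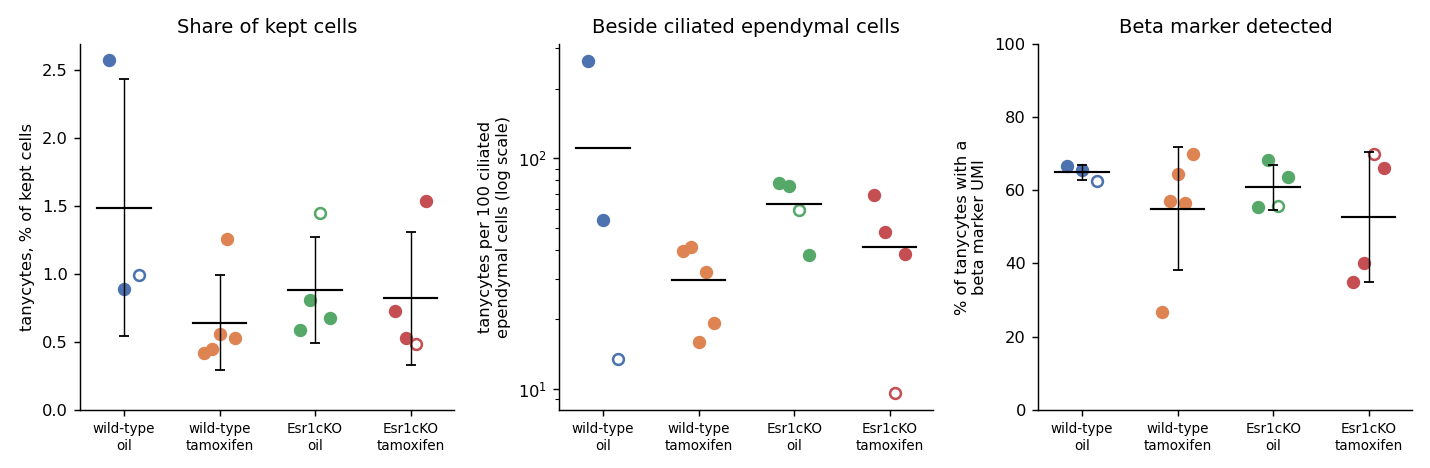
Tanycytes as a percent of kept cells (left), per 100 ciliated ependymal cells (middle, log axis) and the percent of tanycytes with a beta marker UMI (right), 1 point per library. Horizontal bars are arithmetic means, error bars SD (left and right), and open points are the 2 libraries that stood apart and the library labelled female without *Xist*. The groups overlap in all 3 panels, and the highest point on the left is 2.58%.

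The second comparison asked which genes differed within tanycytes. UMIs were summed over the tanycytes of each library, 993 genes passed the filter on low counts out of 17934 with a UMI, and edgeR's quasi-likelihood test was fitted to all 16 libraries. Tamoxifen against oil called 0 genes in wild-type mice (0% of genes tested) at an adjusted p of 0.05, and 0 in Esr1cKO mice (0%). The difference between both effects called 0 (0%), and so did Esr1cKO against wild-type under oil (0%) and under tamoxifen (0%). At an unadjusted p under 0.05 edgeR gave 26 genes in wild-type mice, 19 in Esr1cKO mice, 33 for the difference of effects, 28 for genotype under oil and 26 for genotype under tamoxifen. Each count is less than 0.05 of the 993 genes, the share that chance alone would give if no gene differed. DESeq2, run on 17932 genes and not on the 993, also called 0 in each comparison. At an unadjusted p under 0.05 it gave 161, 137, 159, 138 and 144 genes in the same order, each again less than 0.05 of the genes. The median standard error of a log2 fold change was 0.38 in the wild-type tamoxifen comparison and 0.55 for the difference of effects. These counts do not show that tanycytes of the 4 groups are alike.

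*Tuba1c*, a tubulin alpha gene, came closest to the threshold. It stood at 375, 456 and 426 CPM in wild-type oil, 98.7, 153, 152 and 116 CPM in Esr1cKO oil, 306, 151, 140.4, 218 and 282 CPM in wild-type tamoxifen, and 434, 223, 118 and 249 CPM in Esr1cKO tamoxifen. The oil groups did not overlap, which held for 4.53% of the genes tested in that comparison. The log2 fold change of Esr1cKO against wild-type under oil was −1.59 (SE 0.35, unadjusted p = 0.000142, edgeR adjusted p = 0.141). Over the 28 alternative settings in which it was fitted the adjusted p ran from 0.0429 to 1. The difference of its tamoxifen effects was 1.86 (SE 0.49, edgeR adjusted p = 0.943). The next genes under oil were *Braf*, *Clk1*, *Nr1d1* and *Dbi*, with log2 fold changes of 1.69, 1.25, −2.33 and −0.91 and edgeR adjusted p = 0.998 each.

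The other comparisons were further from a call. In wild-type mice the 5 genes with the smallest p were *Ftl1*, the ferritin light chain (log2 fold change −1.56, SE 0.46), *Chmp4b* (1.44), *D4Wsu53e* (0.86), *Golgb1* (−1.005) and *Ildr2* (−0.84), all at an edgeR adjusted p of 0.999. *Ftl1* stood at 585, 376 and 238 CPM under oil and at 219, 101, 70.2, 171 and 103 CPM under tamoxifen, without overlap, as did 3.32% of the genes tested. In Esr1cKO mice they were *Pja2*, a ubiquitin ligase (1.32, SE 0.41), *Erdr1* (2.09), *Itm2c* (0.86), *Mbp* (−0.93) and *Wdr96* (1.16), at an edgeR adjusted p of 0.9997. *Pja2* stood at 65.8, 153, 161 and 204 CPM under oil and at 567, 520.0, 315 and 238 CPM under tamoxifen, also without overlap (2.11% of the genes tested). Between genotypes under tamoxifen they were *Prkar1a* (1.002), *Mbp* (−0.97), *Lix1* (0.92), *Agt* (−2.11) and *Tm9sf3* (−0.85), at an edgeR adjusted p of 0.998. *Mbp* and *Agt* mark oligodendrocytes and astrocytes. *Mbp* stood at 699, 757, 609, 484 and 590.0 CPM in wild-type tamoxifen and at 200.3, 148, 197 and 488 CPM in Esr1cKO tamoxifen. These groups overlapped for *Mbp*, and 0.906% of the genes tested did not overlap in this comparison. None of these genes passed the threshold. Leaving out the cells of shared barcodes, alone or together with the 2 libraries that stood apart and the library without *Xist*, also gave 0 calls in all 5 comparisons.

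No gene of the selection rule was called in any of the 5 comparisons. All 6 passed the filter, but cells were kept only if they held these genes, so their levels in the selected cells cannot show whether the genes differed between groups. *Dio2* had library values of 360.0, 376 and 136 CPM in wild-type oil, 393, 202, 726, 275 and 257 CPM in wild-type tamoxifen, 395, 509, 375 and 175 CPM in Esr1cKO oil, and 300.4, 148, 315 and 325 CPM in Esr1cKO tamoxifen, with overlap between all groups. Under tamoxifen against oil the 6 genes had log2 fold changes of −0.45 to 0.38 in wild-type mice and −0.47 to 0.75 in Esr1cKO mice. Of the 20 leading genes, 19 passed the filter, with a median log2 fold change of 0.02 in wild-type mice and −0.07 in Esr1cKO mice, beside 0.03 and −0.03 over all 993 genes. Of 16 tested markers outside the rule the medians were −0.02 and −0.29. Outside the rule, the 4 tested genes of thyroid hormone handling had medians of 0.11 and −0.20, the 10 of the neural stem list −0.12 and 0.24, and the 15 immediate early genes −0.30 and −0.38. No member of these lists was called in any of the 5 comparisons.

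**Figure D5:**
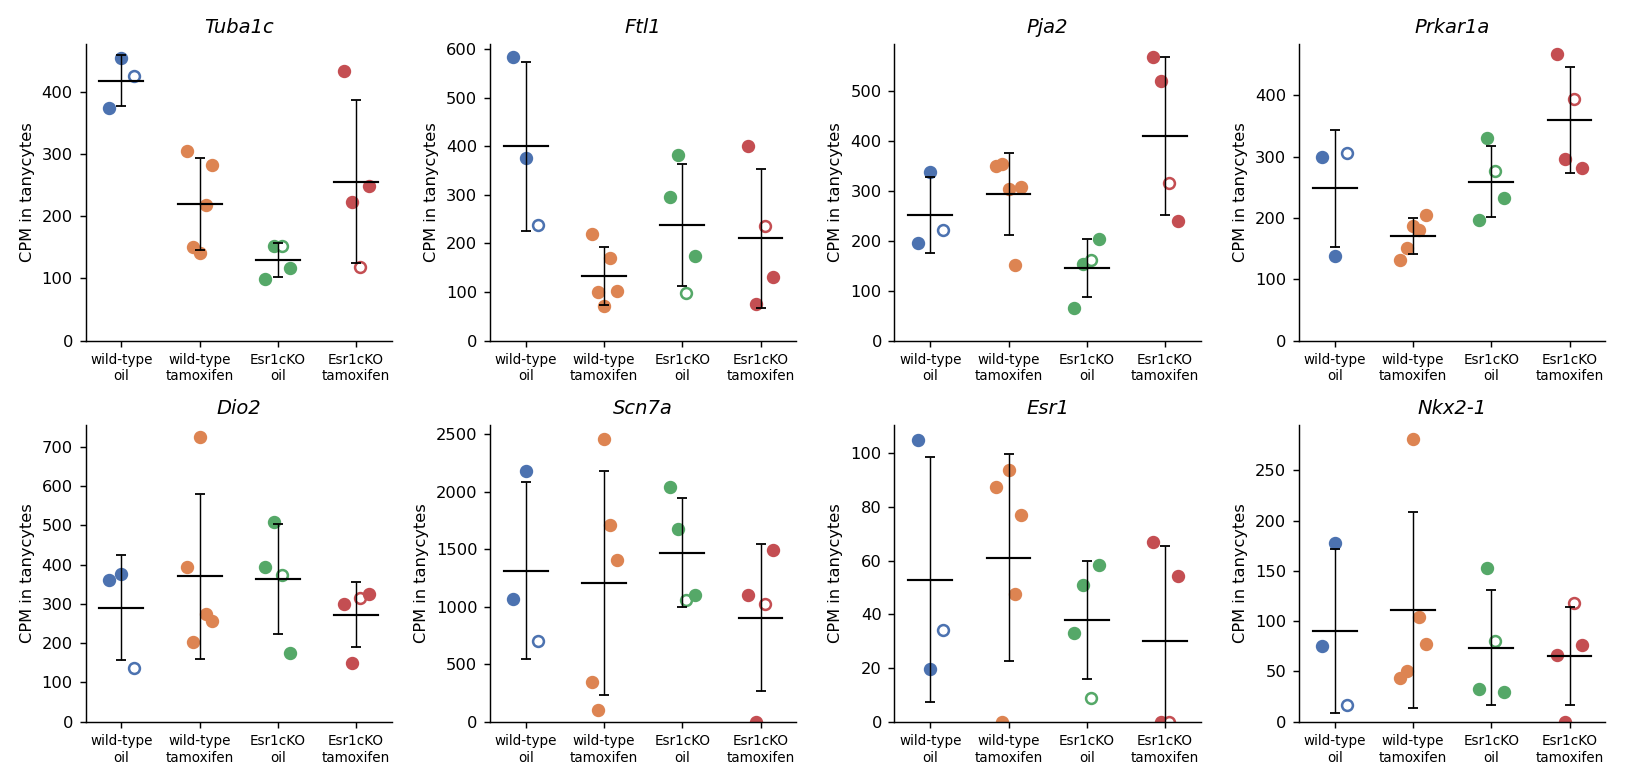
Level in tanycytes (CPM) of 8 genes, 1 point per library, with mean and SD by group; open points are the 2 libraries that stood apart and the library labelled female without *Xist*. *Tuba1c* does not overlap between the oil groups (375 to 456 CPM against 98.7 to 153 CPM) without passing the adjusted threshold, while *Dio2*, *Scn7a*, *Esr1* and *Nkx2-1* overlap between all groups.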

How the data were processed

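Whole hypothalamus and preoptic area was profiled by Drop-seq in 16 mice. The authors deposited raw UMI counts per gene and barcode for each library, unnormalized. The submitters' processing notes name mm10, STAR 2.6 and Seurat 3.6.1. The study's methods give 3.6.1 as the version of R and another version for Seurat. Libraries held 2634253 to 8038158 UMIs, 1717573 to 5457033 of them in kept cells. The members and gene lists were chosen with earlier results of these data known. Ciliated ependymal cells (1521) had at least 2 of 5 ciliary genes, and astrocytes (11189) at least 2 of 6 astrocyte genes (*Aqp4*, *Agt*, *Slc6a11*, *Ntsr2*, *Slc7a10*, *F3*) and at most 1 ciliary gene. Both had no *Rax* or *Col23a1* and at most 1 of the 11 excluded genes. CPM scale a library's UMIs of a gene to the summed UMIs of a cell class, so a level is a share of UMIs, counted at transcript ends and not per length. Named genes were the selection genes, the 20 largest and 10 smallest ratios, list members with 20 UMIs, the receptors and, per comparison, the 5 smallest p. Summed UMIs were tested with edgeR 4.0.16 (TMM, filterByExpr, Benjamini-Hochberg, two-sided), tested on simulated data, and DESeq2 1.42.0. The study compared cells, which is replaced here by sums per mouse. Shares were tested by exact permutation with scipy 1.17.1. Doublets were marked with Scrublet in scanpy 1.11.5. Drop-seq libraries from separate mice are the replicates, numbered in accession order. Replicates 1 to 3 of each group therefore fall in the first 3 fours of library numbers, which the labels do not name as pairs or days. Alternatives varied the normalization, filters, selection, libraries and block. Those chosen after seeing the data were leaving out shared barcodes, leaving out these together with 3 libraries, and share differences within fours of library numbers. Some genes that the rules name are not reported here.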

Additional observations from a re-analysis of the deposited data

Results flagged for a closer look

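Of 147 groups of 4 or 5 libraries examined, 13 (8.84%) held a library that lay far from the others by Dixon's criterion, which chance alone gives in about 1 in 20 groups. *Xist* stood at 0.5816 CPM over the kept cells of Esr1cKO oil replicate 3, against 276 to 318 CPM in the other 3 libraries, and at 330.3 CPM in wild-type tamoxifen replicate 4, against 247 to 264 CPM. Tanycytes made up 1.255% of kept cells in wild-type tamoxifen replicate 4 and at most 0.557% in the other 4. Within tanycytes, Esr1cKO tamoxifen replicate 3, which stood apart, was high for *Lhx2* (433.1 CPM), *S100a4* (315 CPM), *Cdh2* (1221 CPM) and *Golgb1* (708.7 CPM). Esr1cKO tamoxifen replicate 4 was high for *Tiparp* (617.9 CPM) and *Mbp* (487.8 CPM), and replicate 2, with 10 tanycytes, was low for *Dio2* (148.4 CPM). In wild-type tamoxifen, *Nkx2-1* was high in replicate 3 (280.9 CPM), *Pja2* low in replicate 4 (151.8 CPM) and *Erdr1* high in replicate 1 (218.6 CPM). No difference of tamoxifen effects between genotypes passed its test.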

How the results depend on the processing

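Over 30 alternative settings the 5 gene comparisons gave 0 called genes in 140 of 147 fits. Under the tested settings that made calls, Esr1cKO against wild-type under oil called 1 gene with at least 3 of 6 selection genes (*Xist*; 9 libraries, 1 of them Esr1cKO oil, assumed to vary like the others), 2 without a filter on low counts (*Npy*, *Dcn*) and 1 when the outlying pair of libraries had its own model term (*Tuba1c*). Under tamoxifen, it called 2 genes with mitochondrial UMIs under 5% (*Npy*, *Snhg11*; 9 libraries) and 2 without the filter (*Npy* among them). Tamoxifen against oil called 1 in Esr1cKO mice with 3 of 6 genes (*Xist*) and 1 in wild-type mice without the filter (*Gal*). These genes were named after their values were seen. One cell held 133 of 208 *Npy* UMIs, 1 cell 25 of 32 *Gal* UMIs and 1 cell 28 of 39 *Dcn* UMIs. The *Xist* calls rest on Esr1cKO oil replicate 3. Leaving out each library in turn called 0 genes in every comparison.

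No test of shares passed the threshold in any of 25 settings, though no single test could pass after adjustment, and several differences changed sign. For the percent of kept cells in Esr1cKO mice (tamoxifen minus oil) it was 0.0943 after thinning, 0.0870 with over 500 genes, 0.04998 without the 2 libraries that stood apart and 0.274 with 3 libraries and shared barcodes left out. Between genotypes under tamoxifen it was −0.00428 with 3 of 6 genes and −0.0893 with mitochondrial UMIs under 5%. For beta markers in wild-type mice it was 16.1 after thinning, 3.603 with no ciliary or exclusion gene allowed, 8.05 with mitochondrial UMIs under 5% and 0.227 with over 500 genes. In Esr1cKO mice it was 12.4 after thinning and 0.893 with over 500 genes, between genotypes under oil 7.66 with no ciliary or exclusion gene, and under tamoxifen 6.60 with 3 of 6 genes. Beta marker shares used only libraries with at least 10 tanycytes, so these settings also left out libraries. Leaving out each library in turn gave, for the percent of kept cells, −1.15 to −0.302 (wild-type), −0.299 to 0.129 (Esr1cKO), −0.907 to −0.0631 (oil) and −0.0601 to 0.331 (tamoxifen). For tanycytes per 100 ciliated cells it gave −129.7 to −4.00, −31.0 to −11.2, −96.2 to 29.4 and 2.37 to 22.2, and for beta markers −13.7 to −2.85, −13.7 to −2.08, −6.58 to −2.38 and −9.27 to 3.73, in the same order. The causes were not tested. By replicate number, no paired analysis was possible because the labels give no replicate number that groups share, so none was made. Instead, libraries were blocked by successive fours of library numbers, which may be the days of the study. This block gave 0 called genes in all 5 comparisons, with 40, 23, 38, 33 and 26 genes at an unadjusted p under 0.05 (tamoxifen in wild-type and Esr1cKO mice, the difference of effects, genotype under oil and under tamoxifen). Each count is less than 0.05 of the 993 genes tested. Differences in shares within fours, chosen after seeing the data, had the sign of the unblocked ones in all 12 cases, and none could reach the threshold (exact permutation within fours, smallest p allowed 0.0833).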
